A study of Homo sapiens with 4 samples.

Results

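Transforming growth factor beta (TGF-β), the activins and the bone morphogenetic proteins (BMPs) are secreted dimers of 1 superfamily. They bind pairs of type I and type II serine/threonine kinase receptors, and the type I receptor phosphorylates SMAD proteins, which enter the nucleus with SMAD4. TGF-β and activin act mainly through SMAD2 and SMAD3, and BMPs through SMAD1, SMAD5 and SMAD9, while follistatin binds activin outside the cell and SMAD7 blocks the receptors from inside. In thyroid and other epithelial tissue, TGF-β is known as a growth inhibitor that can also promote a mesenchymal phenotype.

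The 10 genes described here are 6 ligand genes (TGFB1, TGFB2, INHBA, INHBB, BMP2 and BMP4), the receptor gene TGFBR2, the antagonist gene FST and the readout genes SMAD7 and TGFBI. They were chosen by gene name, with the loss of INHBA in the library labelled SW1736-PTX already known. All 10 were found, each on 1 row, among 26485 gene names, of which 14692 were above 0.5 FPKM in at least 1 library. FPKM is the number of aligned fragments scaled to transcript length and library depth, so levels can be set side by side between genes.

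SW1736 and 8505C are established human cell lines from anaplastic thyroid cancer (ATC), an undifferentiated thyroid carcinoma. The 4 conditions, with 1 mRNA library each, were SW1736 wt, SW1736-PTX, 8505C wt and 8505C-PTX. The wt cells were the paclitaxel-sensitive parental lines and received no paclitaxel, a taxane that stabilizes microtubules. The PTX cells came from these lines by 6 months of paclitaxel rising from 1 nM to 1.5 µM, were kept at 1.5 µM, and no PTX cells grown without the drug are among the libraries. The lines were grown in RPMI medium with serum, which holds TGF-β family ligands of its own. With 1 library per condition there is no replicate error, no p-value was computed, and a difference in log2((A + 0.1)/(B + 0.1)) of FPKM above 1.5 or below -1.5 was called higher or lower where at least 1 library of the pair was above 0.5 FPKM. On this scale, changes of weakly expressed genes are understated. In RNA from whole cultures, fewer cells that express a gene and less RNA of it per cell cannot be told apart.

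The library labelled SW1736-PTX was closer to the 8505C libraries than to its own parental line. Across 14692 genes, which are not independent, Pearson's r of log2(FPKM + 0.1) was 0.767 with SW1736 wt, 0.873 with 8505C wt and 0.933 with 8505C-PTX. Of 9 thyroid follicular markers, 6 were at or below 0.5 FPKM in all 4 libraries, among them TG, TSHR and SLC5A5, which define differentiated thyroid cells. The other 3 separated SW1736 wt from the rest. PAX8 had 38.2 FPKM in SW1736 wt against 0.123 to 0.206 in the other 3, FOXE1 was at 26.6 against 0.0443 to 0.511, and NKX2-1 was listed at 0 against 30.5 to 39.0. The keratin gene KRT19 was at 266 FPKM in SW1736 wt, 0.535 in the library labelled SW1736-PTX and 0 in both 8505C libraries. KRT7, KRT8 and KRT18, the other keratins of the epithelial list, were higher in the library labelled SW1736-PTX than in SW1736 wt, with KRT8 at 331, 973, 440 and 974 FPKM and KRT18 at 257, 1437, 511 and 1240 in SW1736 wt, SW1736-PTX, 8505C wt and 8505C-PTX. The summed level of 6 epithelial markers was 1767, 3493, 1272 and 3058 FPKM in this order, higher in each PTX library than in its wt library. It was almost wholly a sum of keratins, since EPCAM and CDH1 were under 0.5 FPKM in all 4 libraries. The summed level of 4 mesenchymal markers was 4864, 1893, 1554 and 1640 FPKM. VIM and FN1 made up most of it, while CDH2 (35.6 to 38.7 FPKM) and ZEB1 (9.16 to 10.9) differed little. The part of these markers in the results was not tested. A difference between the library labelled SW1736-PTX and SW1736 wt therefore cannot be told apart from a difference between the lines, and results on this library are also given against 8505C wt. Of 9 blood and endothelial markers, 6 were at or below 0.5 FPKM in every library, and the exceptions were CD14, HBB and CDH5. The summed level of the 9 was 0.932, 1.37, 56.9 and 9.91 FPKM in SW1736 wt, SW1736-PTX, 8505C wt and 8505C-PTX, of which CDH5 (VE-cadherin) made up 55.9 in 8505C wt, and its part in the results was not tested.

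Promoters of 4 of the genes are shown because the results turn on them: INHBA and INHBB, which were above 1 FPKM only in SW1736 wt, and TGFB2 and SMAD7, which were higher in both PTX libraries. The sequences are the 250 bases before the most upstream RefSeq start (GRCh38.p14), 5′ to 3′ on the gene's strand, and capitals mark matches to any of 4 motifs searched on both strands: GTCTAGAC (the SMAD palindrome), CAGACA (the SMAD box), GGCGCC (a GC-rich SMAD site) and TGACTCA (an AP-1 site).
INHBA (chr7:41703091-41703340, minus strand): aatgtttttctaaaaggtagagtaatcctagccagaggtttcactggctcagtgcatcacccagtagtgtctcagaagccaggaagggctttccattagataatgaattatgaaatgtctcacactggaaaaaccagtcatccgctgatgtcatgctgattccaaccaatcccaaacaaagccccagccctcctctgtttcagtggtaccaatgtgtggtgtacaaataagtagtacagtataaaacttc
INHBB (chr2:120345886-120346135, plus strand): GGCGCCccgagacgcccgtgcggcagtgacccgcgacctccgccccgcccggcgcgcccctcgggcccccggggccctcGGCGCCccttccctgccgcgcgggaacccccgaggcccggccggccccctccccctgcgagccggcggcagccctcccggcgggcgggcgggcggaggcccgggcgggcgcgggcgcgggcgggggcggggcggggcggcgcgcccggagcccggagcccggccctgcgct
TGFB2 (chr1:218345086-218345335, plus strand): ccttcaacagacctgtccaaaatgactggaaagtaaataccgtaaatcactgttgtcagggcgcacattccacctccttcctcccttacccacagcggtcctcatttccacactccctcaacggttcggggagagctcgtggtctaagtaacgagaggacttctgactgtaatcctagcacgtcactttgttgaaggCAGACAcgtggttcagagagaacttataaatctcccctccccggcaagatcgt
SMAD7 (chr18:48950966-48951215, minus strand): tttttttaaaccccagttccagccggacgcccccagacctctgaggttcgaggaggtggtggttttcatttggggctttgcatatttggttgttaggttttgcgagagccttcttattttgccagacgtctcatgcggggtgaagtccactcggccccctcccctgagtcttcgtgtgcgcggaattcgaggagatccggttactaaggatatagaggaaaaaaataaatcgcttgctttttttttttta
Of the 10 genes, 9 had promoters in this table, the exception being BMP2. Counted from the start, with -1 for the base before it, TGFB2 had CAGACA at -53 and INHBB had GGCGCC at -250 and -171, while INHBA and the SMAD7 window shown held none of the 4 motifs, and no match shown overlapped another. SMAD7 had 3 promoters, and none of these windows held a motif. The window shown lies upstream of 48950711, where the SMAD7 gene of the FPKM values starts on the minus strand. The bases between were not searched, so a site there would be missed. Among all 35116 promoters of the same length, 13.6% held CAGACA, 16.4% GGCGCC, 4.20% TGACTCA and 0.182% GTCTAGAC. The activin genes had promoters of opposite composition, with 89.6% G and C for INHBB and 42.8% for INHBA, against a median of 58.0% over all promoters. These matches describe the letters of the windows and are no evidence that a factor binds there.

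Among the 10 genes, 5 were called between the library labelled SW1736-PTX and SW1736 wt, with TGFB2 and SMAD7 higher and INHBA, INHBB and FST lower. Of all 14202 genes compared in this pair, 25.9% were called (15.7% higher, 10.2% lower). Since the genes were chosen with this pair in view, the count is a description, in which SMAD7 (1.71) lay just inside the limit and TGFBI (1.20) just outside. In 8505C, 9 of the 10 could be compared and 3 were called, TGFB2, BMP2 and SMAD7, all higher, against 20.9% of 13794 genes (15.0% higher, 5.89% lower). Against 8505C wt, the library labelled SW1736-PTX had 2 calls among 9 genes compared, TGFB2 and SMAD7, both higher, against 20.4% of 13824 genes (15.1% higher, 5.23% lower). These comparisons share libraries: the library labelled SW1736-PTX is in the first and the last, and 8505C wt in the last 2. The differences called in all 3 comparisons were those of TGFB2 and SMAD7. Of these 3 comparisons, INHBA, INHBB and FST were called lower in the one against SW1736 wt, while in the other 2 INHBA was lower without a call, INHBB could not be compared and FST was not called.

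**Figure D1:**
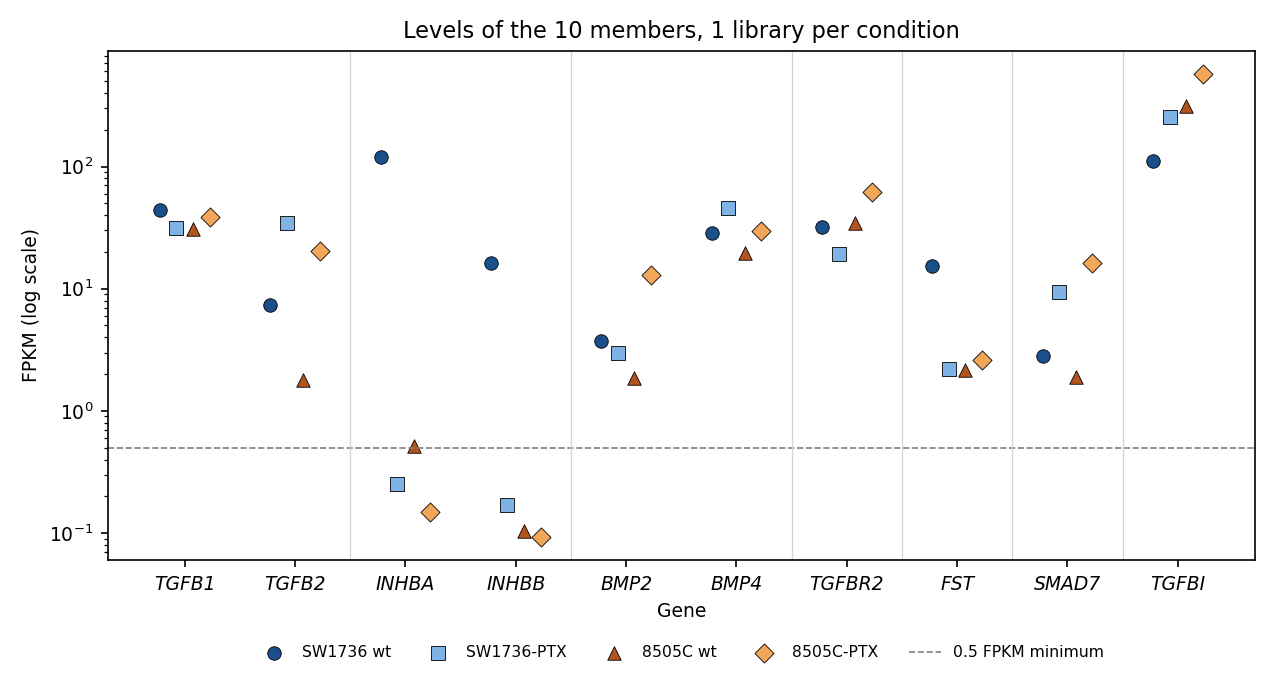
Level of each gene in FPKM (vertical axis, log scale) in the 4 libraries, 1 point per library, with the dashed line at the minimum of 0.5 FPKM. INHBA and INHBB stand above 16 FPKM in SW1736 wt and near or below the line in the other 3 libraries, while TGFB2 and SMAD7 are higher in each PTX library than in either wt library.

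INHBA encodes the βA subunit, whose homodimer is activin A. It lies on the minus strand of chromosome 7 (41689003 to 41703108, hg38). It was at 121 FPKM in SW1736 wt, 0.253 in the library labelled SW1736-PTX, 0.515 in 8505C wt and 0.149 in 8505C-PTX. SW1736 wt stood alone, with a level above those of 95.3% of the genes over 0.5 FPKM in that library, and 8505C wt was barely over the minimum. The FPKM in SW1736 wt was 478 times that in the library labelled SW1736-PTX (log2 difference -8.42), and 0.0352% of the genes compared had a lower value. In 8505C the difference was -1.31, inside the limit, on about 48 reads in wt and 17 in PTX cells. The exact Poisson 95% interval of such counts gave 0.380 to 0.682 FPKM for 8505C wt and 0.0868 to 0.237 for 8505C-PTX, which do not overlap but cover counting error only. Against 8505C wt, the library labelled SW1736-PTX had a difference of -0.80, with an interval of its level of 0.172 to 0.357 FPKM. INHBA-AS1, an antisense gene that overlaps INHBA, was at 0.680 FPKM in SW1736 wt and listed at 0 in the other 3 libraries. Whether reads were counted by strand is not given in the sources used here, so reads of the pair cannot be told apart. The other 2 neighbours compared within 1 Mb were not lower: GLI3 had 1.98 FPKM in SW1736 wt against 4.46 in the library labelled SW1736-PTX, and SUGCT 1.49 against 3.90.

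INHBB encodes the βB subunit, whose homodimer is activin B (chromosome 2, 120346143 to 120351807). Its level was 16.2 FPKM in SW1736 wt, 0.169 in the library labelled SW1736-PTX, 0.105 in 8505C wt and 0.0931 in 8505C-PTX. The order was the same as for INHBA in that SW1736 wt was far above the rest, and the other 3 libraries, with about 15 to 31 reads each, had overlapping counting intervals. The log2 difference against SW1736 wt was -5.92, a ratio of 95.7, and the gene stayed under the minimum in both other comparisons. The summed level of INHBA and INHBB was 137 FPKM in SW1736 wt, 0.422 in the library labelled SW1736-PTX, 0.619 in 8505C wt and 0.242 in 8505C-PTX. INHA, the α subunit that makes inhibin with a β subunit, did not exceed 0.968 FPKM in any library.

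FST encodes follistatin, which binds and neutralizes activin (chromosome 5, 53480434 to 53486474). It was at 15.4 FPKM in SW1736 wt, 2.22 in the library labelled SW1736-PTX, 2.15 in 8505C wt and 2.59 in 8505C-PTX. The last 3 libraries had overlapping counting intervals, from 1.82 to 2.95 FPKM, and only SW1736 wt lay outside them. The log2 difference was -2.74 against SW1736 wt, 0.26 in 8505C and 0.05 between the library labelled SW1736-PTX and 8505C wt. The ratio of INHBA to FST in FPKM was 7.83 in SW1736 wt, 0.114 in the library labelled SW1736-PTX, 0.240 in 8505C wt and 0.0573 in 8505C-PTX. FSTL3, a follistatin-like antagonist of activin, had 23.2, 29.5, 10.0 and 20.5 FPKM in the same order and so exceeded FST in every library.

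The genes whose profile over the 4 libraries was most like that of INHBA were TMEM200A, CBFB, INA, AP1M2 and CDCA7L, with distances between centred log2 profiles of 1.02 to 1.30 among 10133 genes above 5 FPKM in at least 1 library. All 5 were between 16.3 and 80.2 FPKM in SW1736 wt and at most 0.0976 FPKM in each of the other libraries. Of 6235 genes above 10 FPKM in SW1736 wt, 45 (0.722%) were below 1 FPKM in the remaining libraries, and both activin genes were among them. These limits were set once the values were known.

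TGFB2 encodes TGF-β2 (chromosome 1, 218345334 to 218444619). It was at 7.39 FPKM in SW1736 wt, 34.4 in the library labelled SW1736-PTX, 1.78 in 8505C wt and 20.3 in 8505C-PTX. Both PTX libraries were above both wt libraries, and every pair of counting intervals was apart. The log2 difference was 2.20 in SW1736 (4.65 times), 3.44 in 8505C (11.4 times) and 4.20 between the library labelled SW1736-PTX and 8505C wt, where 98.5% of the genes compared had a lower value. Of the genes that overlap it, TGFB2-AS1 was at most 0.366 FPKM and TGFB2-OT1 at most 0.246, and none of the 3 neighbours compared within 1 Mb was called in any of these comparisons.

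TGFB1 encodes TGF-β1, the isoform usually most abundant in epithelial cells (chromosome 19, 41330531 to 41353933). It was at 44.3 FPKM in SW1736 wt, 31.6 in the library labelled SW1736-PTX, 30.7 in 8505C wt and 38.4 in 8505C-PTX, so the highest was 1.44 times the lowest, the narrowest range of the 10 genes. The log2 difference was -0.49 in SW1736, 0.32 in 8505C and 0.04 between the library labelled SW1736-PTX and 8505C wt. TGFB2 therefore made up 14.1% of the summed FPKM of TGFB1, TGFB2 and TGFB3 in SW1736 wt and 51.7% in the library labelled SW1736-PTX, and 5.41% in 8505C wt and 34.1% in 8505C-PTX. The sum itself was 52.5, 66.5, 32.8 and 59.6 FPKM in the order SW1736 wt, SW1736-PTX, 8505C wt and 8505C-PTX. TGFB3, which encodes TGF-β3, stayed between 0.313 and 0.815 FPKM.

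BMP2 (chromosome 20, 6768098 to 6780263) and BMP4 (chromosome 14, 53949736 to 53956836) encode closely related ligands that signal through SMAD1, SMAD5 and SMAD9. BMP2 was at 3.75 FPKM in SW1736 wt, 2.96 in the library labelled SW1736-PTX, 1.84 in 8505C wt and 13.0 in 8505C-PTX. Only 8505C-PTX stood out, with a log2 difference of 2.76 from 8505C wt (7.06 times) and of 2.10 from the library labelled SW1736-PTX, while the SW1736 pair differed by -0.33 and the library labelled SW1736-PTX from 8505C wt by 0.66. BMP4 had 28.7, 45.5, 19.4 and 29.6 FPKM in the same order, higher in each PTX library than in its wt library by 0.67 and 0.60, inside the limit, as was the difference of 1.22 between the library labelled SW1736-PTX and 8505C wt. The ratio of BMP4 to BMP2 in FPKM was 7.64 in SW1736 wt, 15.4 in the library labelled SW1736-PTX, 10.6 in 8505C wt and 2.28 in 8505C-PTX.

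TGFBR2 encodes the type II receptor for TGF-β (chromosome 3, 30606502 to 30694141). It was at 31.7 FPKM in SW1736 wt, 19.2 in the library labelled SW1736-PTX, 34.5 in 8505C wt and 61.6 in 8505C-PTX. The PTX libraries held the lowest and the highest level, and the log2 difference was -0.72 in SW1736, 0.84 in 8505C and -0.84 between the library labelled SW1736-PTX and 8505C wt, none of them called. Between the PTX libraries it was 1.68 higher in 8505C-PTX and was called, as was BMP2, against 7.79% of 13986 genes (3.70% higher, 4.09% lower).

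SMAD7 encodes an inhibitory SMAD that is itself induced by TGF-β and BMP signals (chromosome 18, 48919853 to 48950711). It was at 2.80 FPKM in SW1736 wt, 9.41 in the library labelled SW1736-PTX, 1.90 in 8505C wt and 16.3 in 8505C-PTX. Both PTX libraries were above both wt libraries, with log2 differences of 1.71 in SW1736 (3.36 times), 3.04 in 8505C (8.58 times) and 2.25 between the library labelled SW1736-PTX and 8505C wt. SMAD7 lies within 1 Mb of SMAD2, and of its neighbours 11 were compared in SW1736 (3 higher, 1 lower, where 15.7% and 10.2% of all genes were) and 12 in 8505C (3 higher, none lower, where 15.0% and 5.89% were).

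TGFBI encodes a secreted matrix protein named for its induction by TGF-β (chromosome 5, 136028895 to 136063818). It was the most abundant of the 10 genes in every library but SW1736 wt, with 111 FPKM in SW1736 wt, 255 in the library labelled SW1736-PTX, 313 in 8505C wt and 573 in 8505C-PTX, where 99.1% of the genes over 0.5 FPKM were lower. Each PTX library was above its own wt library, by 1.20 in SW1736 and 0.87 in 8505C, neither called. Against 8505C wt, however, the library labelled SW1736-PTX was lower by 0.29 on the log2 scale (difference -0.29), so the direction turned with the wt library used.

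**Figure D2:**
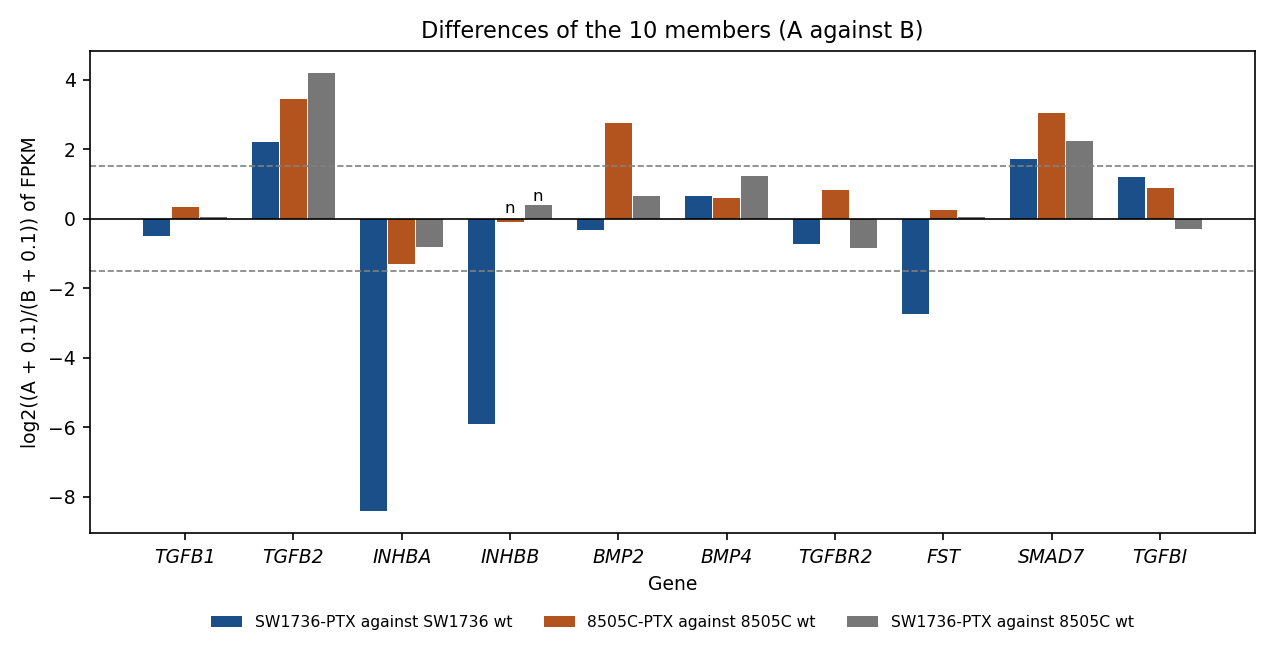
Log2 difference of each gene, log2((A + 0.1)/(B + 0.1)) of FPKM, in SW1736 (blue), in 8505C (brown) and between the library labelled SW1736-PTX and 8505C wt (grey), with dashed lines at 1.5 and -1.5 and n for genes under 0.5 FPKM in both libraries. TGFB2 and SMAD7 are above the upper line in all 3, and INHBA, INHBB and FST are below the lower line against SW1736 wt and not in the other 2.

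The wt lines differed in 4 of the 10 genes, against 17.6% of 13457 genes compared (7.73% higher, 9.92% lower). INHBA, INHBB and FST were lower in 8505C wt than in SW1736 wt, with log2 differences of -7.62, -6.31 and -2.79. TGFB2 was lower as well, with 4.16 times its 8505C wt level in SW1736 wt, and TGFBI was just short of a call, with a difference of 1.50 after rounding. The median absolute difference over the 10 genes was 1.46 between the library labelled SW1736-PTX and SW1736 wt, 0.73 between it and 8505C wt, and 0.69 between it and 8505C-PTX. It was 1.24 between the wt libraries, 0.85 between 8505C wt and 8505C-PTX, and 2.07 between SW1736 wt and 8505C-PTX. Since the genes were chosen with the first of these pairs in view, the values are a description.

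The rest of the pathway was followed in 9 lists with 121 different genes, the 10 genes included. Some genes are in several lists. SMAD7, called higher in both lines, is counted among the SMADs, the intracellular and membrane inhibitors, the TGF-β target genes and the BMP target genes. Without the 10, 77 of 111 genes were compared in SW1736, with 15 higher and 19 lower, and 70 in 8505C, with 24 higher and 3 lower. Between the library labelled SW1736-PTX and 8505C wt, 22 of 70 were higher and 5 lower. Of all genes compared, 15.7% were higher and 10.2% lower in SW1736, and 15.0% and 5.89% in 8505C. Against 8505C wt, 15.1% were higher and 5.23% lower. The counts of each list below are to be set beside these shares. A gene at or below 0.5 FPKM in either library of a pair was compared only through the other library. All these counts and medians therefore depend on the minimum and are a description. The median log2 difference of the pathway genes without the 10 was 0.04 in SW1736, 0.72 in 8505C and 0.50 against 8505C wt. The medians of all genes compared were 0.01, 0.11 and 0.10. Of 78 pathway genes compared in both lines, 11 were higher in both PTX libraries, 3 lower in both, and 6 lower in SW1736 but higher in 8505C. The share of all genes with such calls in both lines was not computed, so these counts describe the lists and are no result about the pathway.

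**Figure D3:**
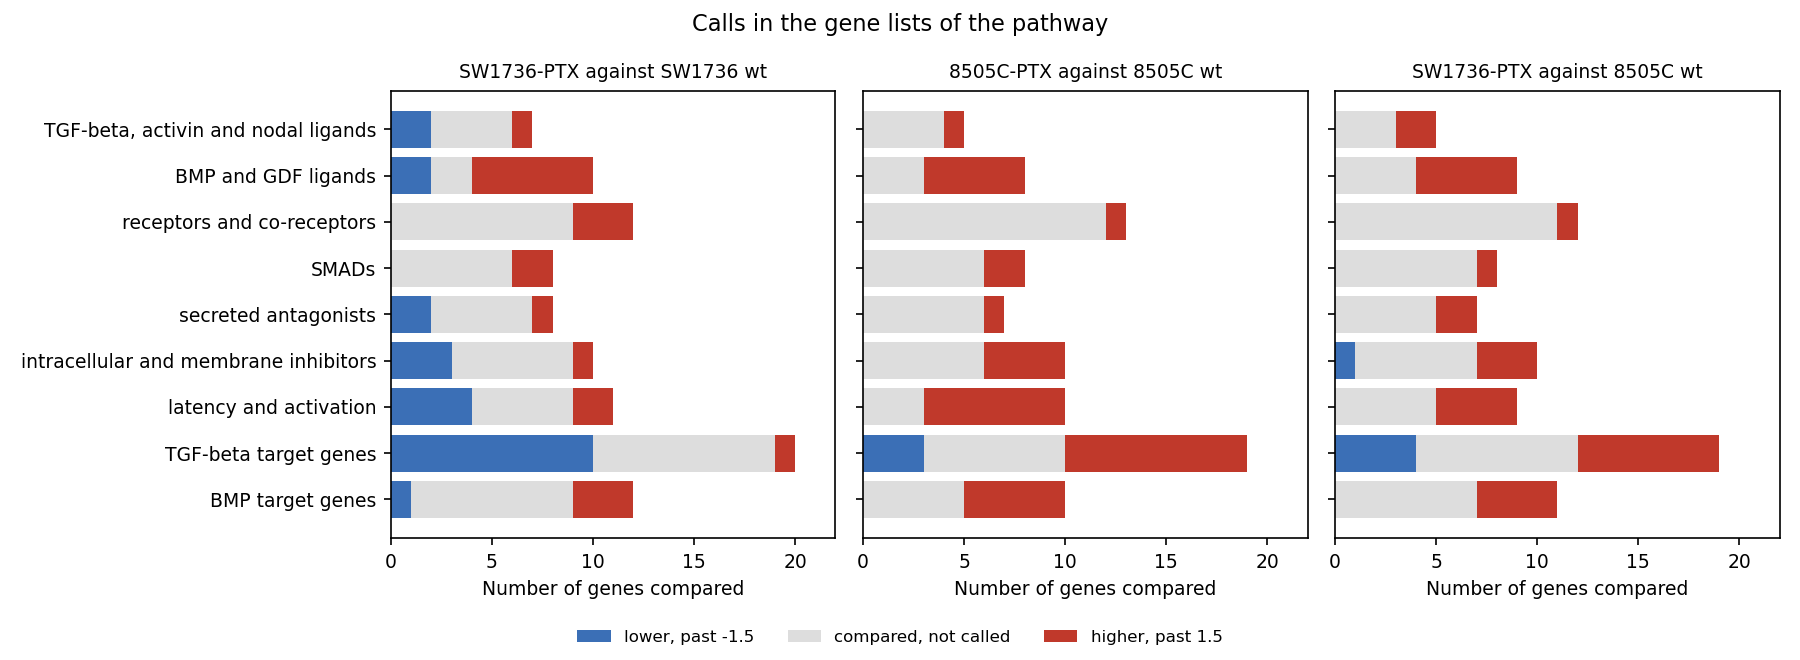
Number of genes compared in each list (horizontal axis) that were lower (blue), not called (grey) or higher (red), for the 3 comparisons. The TGF-β target genes show 10 lower and 1 higher in SW1736, 3 lower and 9 higher in 8505C, and 4 lower and 7 higher against 8505C wt. Some genes passed the minimum only through the library in which they were high, so the counts depend on it.

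Among 20 genes of BMP and GDF ligands, 10 were compared in SW1736 (6 higher, 2 lower, median 2.31) and 8 in 8505C (5 higher, none lower, median 2.09). With genes at 0 set to the level of 3 reads, the medians were 3.24 and 2.09. The 6 genes higher in SW1736 (BMP5, BMP6, BMP8B, GDF1, GDF9 and GDF15) were all under 0.5 FPKM in SW1736 wt. They were therefore compared only through the PTX library in which they were high, and GDF5, called lower, only through SW1736 wt. In 8505C, BMP6, GDF9 and GDF15 were likewise compared only through 8505C-PTX. The counts and medians of this list thus depend on the minimum and are a description. BMP6, a BMP known for its control of hepcidin, was at 0.0351 FPKM in SW1736 wt, 4.21 in the library labelled SW1736-PTX, 0.0293 in 8505C wt and 6.36 in 8505C-PTX. GDF15, a stress-induced ligand that acts through GFRAL outside the SMAD receptors, had 0.141, 7.93, 0.0766 and 13.9 FPKM in the same order. Both were below 0.5 FPKM in both wt libraries and above it in both PTX libraries, and the library labelled SW1736-PTX differed from 8505C wt by 5.06 for BMP6 and 5.51 for GDF15. Against 8505C wt, 5 of 9 genes of this list were higher and none lower. Among these, BMP5, BMP6, GDF9 and GDF15 were under 0.5 FPKM in 8505C wt. GDF9 was also higher in each PTX library than in its wt library, from 0.0892 to 0.509 FPKM and from 0.0432 to 0.542. BMP8B had a listed level of 0 in SW1736 wt against 3.33, 0.810 and 3.56 FPKM in the other libraries, and its reads may be shared with its near-identical copy BMP8A. AMH, which encodes anti-Müllerian hormone, was lower in SW1736 (20.1 to 2.76 FPKM) and went from 5.59 to 8.90 FPKM in 8505C, which was not called. Of 13 TGF-β, activin and nodal ligands, 7 were compared in SW1736 (1 higher, 2 lower) and 5 in 8505C (1 higher, none lower), all calls falling on the genes described above.

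Of 17 receptor and co-receptor genes, 12 were compared in SW1736 (3 higher, none lower, median 0.32), 13 in 8505C (1 higher, none lower, median 0.46) and 12 against 8505C wt (1 higher, none lower, median -0.16). ACVRL1, a type I receptor known from endothelium, had a listed level of 0 in SW1736 wt against 4.81 FPKM in the library labelled SW1736-PTX, and was higher in 8505C as well, from 1.13 to 3.95 FPKM. Of the endothelial markers, CDH5 was at 0, 0.225, 55.9 and 4.53 FPKM in SW1736 wt, SW1736-PTX, 8505C wt and 8505C-PTX. PECAM1 and VWF were under 0.5 FPKM in all 4 libraries. The part of these markers in the level of ACVRL1 was not tested. TGFBR3 (betaglycan), which presents TGF-β2 to TGFBR2, was at 0.472 FPKM in SW1736 wt, 10.3 in the library labelled SW1736-PTX, 16.1 in 8505C wt and 11.2 in 8505C-PTX. ENG (endoglin), a co-receptor, had 14.6, 49.6, 97.2 and 112 FPKM in the same order. For TGFBR3 and ENG, SW1736 wt was the lowest library, and neither was called between the library labelled SW1736-PTX and 8505C wt (-0.65 and -0.97). TGFBR1, the type I receptor for TGF-β, was at 8.85, 13.9, 7.67 and 7.65 FPKM. The activin type II receptor genes ACVR2A and ACVR2B were between 0.774 and 2.72 FPKM in all 4 libraries, ACVR1B between 4.86 and 9.07, ACVR1 between 5.16 and 8.20, and the BMP receptor genes BMPR1A and BMPR2 between 5.88 and 11.3, none of them called in SW1736 or in 8505C.

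All 8 SMAD genes were compared in each pair, with 2 higher and none lower in each line and SMAD7 alone higher against 8505C wt. SMAD2 had 3.99 FPKM in SW1736 wt against 13.6 in the library labelled SW1736-PTX (log2 difference 1.75), and 8.55 against 14.2 in the 8505C pair (0.73). SMAD3 was at 30.9, 82.6, 39.1 and 56.3 FPKM, with differences of 1.42 and 0.53, and SMAD4 at 4.59, 8.89, 4.86 and 9.83 FPKM, with differences of 0.94 and 1.00. SMAD6, an inhibitory SMAD induced by BMP signals, was at 3.65 FPKM in both SW1736 libraries, 1.94 in 8505C wt and 17.2 in 8505C-PTX, a difference of 3.09 in 8505C. As for BMP2, the level of SMAD6 was highest in 8505C-PTX and was not called in SW1736 or against 8505C wt (0.88).

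Of 15 secreted antagonists, 8 were compared in SW1736 (1 higher, 2 lower), 7 in 8505C (1 higher, none lower) and 7 against 8505C wt (2 higher, none lower). CHRD, which encodes chordin, a BMP antagonist, was higher in each PTX library than in its wt library. It went from a listed 0 to 2.11 FPKM in SW1736 and from 0.00949 to 1.81 FPKM in 8505C. Between the library labelled SW1736-PTX and 8505C wt the difference was 4.34. NOG (noggin) stayed between 7.20 and 15.7 FPKM with no call. Of 10 intracellular and membrane inhibitors, all compared, 1 was higher and 3 lower in SW1736, 4 higher and none lower in 8505C, and 3 higher and 1 lower against 8505C wt. SMURF1, a ubiquitin ligase that degrades SMADs and receptors, was at 18.3 FPKM in SW1736 wt, 4.20 in the library labelled SW1736-PTX, 6.88 in 8505C wt and 4.06 in 8505C-PTX, with differences of -2.09 and -0.75. SMURF2 was at 47.5, 16.2, 66.1 and 43.6 FPKM, with differences of -1.55 and -0.60, and was called lower against 8505C wt as well (-2.02).

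TGF-β is secreted bound to latency proteins and must be released, and of 16 genes of latency and activation 7 of 10 compared were higher in 8505C-PTX and none lower (median 2.04), against 2 higher and 4 lower of 11 in SW1736 (median -0.40). In SW1736, LTBP1 was compared only through the PTX library, and LTBP2, ITGB8 and TLL1, called lower, only through SW1736 wt. In 8505C, ITGB8 was compared only through 8505C-PTX. The counts and medians of this list thus depend on the minimum, are a description and show no tested contrast between the lines. LTBP3, a latent TGF-β binding protein, was at 8.92 FPKM in 8505C wt and 83.7 in 8505C-PTX, and at 38.5 and 43.1 in the SW1736 pair. LTBP1 had a listed level of 0 in SW1736 wt against 1.87, 0.551 and 3.17 FPKM in the other libraries. BMP1, a protease that cleaves procollagen and latent complexes, was higher in each PTX library than in its wt library. It went from 11.6 to 33.7 FPKM (difference 1.52) and from 11.2 to 76.5 (2.76). THBS1, an activator of latent TGF-β, was at 155 FPKM in 8505C wt and 531 in 8505C-PTX, and at 299 and 317 in the SW1736 pair. Against 8505C wt, the library labelled SW1736-PTX had 4 of 9 genes higher and none lower, and LTBP1, LTBP3, LTBP4 and BMP1 were the 4.

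Genes commonly used as readouts of TGF-β went in different directions. Of 20 such genes, TGFBI and SMAD7 included, all were compared in SW1736 (1 higher, 10 lower, median -1.55), 19 in 8505C (9 higher, 3 lower, median 0.87) and 19 against 8505C wt (7 higher, 4 lower, median 0.51). In SW1736, LTBP2, ANGPTL4, HMGA2 and IL11, called lower, were compared only through SW1736 wt. In 8505C, COL1A1 and SNAI2 were compared only through 8505C-PTX. Against 8505C wt, COL1A1, SNAI2, HMGA2 and IL11 were above 0.5 FPKM in 1 library only. The counts and medians thus depend on the minimum and are a description. TAGLN, an actin-binding protein of smooth muscle, was lower in both PTX libraries, from 58.2 to 2.89 FPKM and from 21.0 to 4.18, as was HMGA2, a chromatin protein, from 17.9 to 0.0921 and from 11.0 to 2.13. Both were also lower in the library labelled SW1736-PTX than in 8505C wt, by log2 differences of -2.82 and -5.85. CCN2, a matricellular protein also known as CTGF, was abundant in all 4 libraries at 266, 337, 504 and 822 FPKM and was not called. CDKN2B and MMP2 were called higher in 8505C (1.92 and 2.54) and against 8505C wt (1.77 and 2.57), but not in SW1736 (-0.84 and 0.57).

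**Figure D4:**
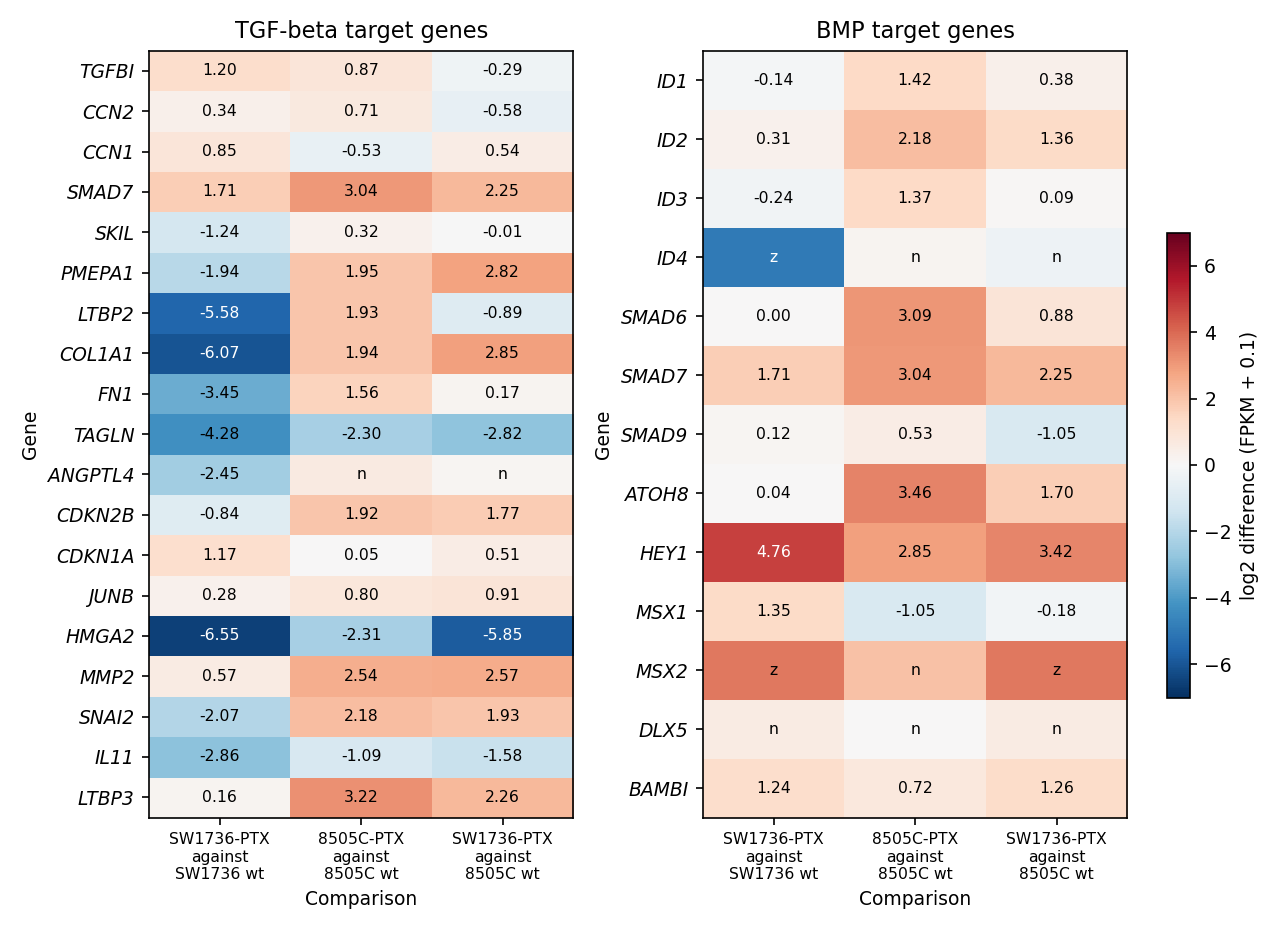
Log2 difference (colour and number) of TGF-β target genes and BMP target genes in the 3 comparisons, with n for genes under 0.5 FPKM in both libraries and z for genes listed at 0 in 1 library. TAGLN and HMGA2 are negative in all 3 columns, SMAD7 and HEY1 positive in all 3, and COL1A1 goes from -6.07 in SW1736 to 1.94 in 8505C. The 8505C value of COL1A1 rests on 0.217 FPKM in 8505C wt and 1.11 in 8505C-PTX.

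Of 13 BMP target genes, 12 were compared in SW1736 (3 higher, 1 lower, median 0.21), 10 in 8505C (5 higher, none lower, median 1.80) and 11 against 8505C wt (4 higher, none lower, median 1.26). In SW1736, HEY1 and MSX2 were compared only through the PTX library in which they were high, and ID4 only through SW1736 wt. ATOH8 in 8505C, and ATOH8 and MSX2 against 8505C wt, were likewise compared only through the PTX library. The counts and medians thus depend on the minimum and are a description. The ID genes encode inhibitors of helix-loop-helix factors and are direct BMP targets. ID1 was at 259 FPKM in SW1736 wt, 234 in the library labelled SW1736-PTX, 181 in 8505C wt and 482 in 8505C-PTX, ID2 at 4.52, 5.61, 2.13 and 10.0, and ID3 at 80.5, 68.1, 63.9 and 166. For all 3, 8505C-PTX was the highest library, with differences in 8505C of 1.42, 2.18 and 1.37, of which only that of ID2 was called, and of -0.14, 0.31 and -0.24 in SW1736. ATOH8 had the same order, with 5.00 FPKM in 8505C-PTX and 0.363 to 1.41 in the other libraries. HEY1, a repressor that Notch and BMP signals induce, was higher in each PTX library than in its wt library, from 0.147 to 6.59 FPKM and from 0.526 to 4.42. It was also higher in the library labelled SW1736-PTX than in 8505C wt (3.42). ID4 had 3.00 FPKM in SW1736 wt against 0 to 0.0480 in the others.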

How the data were processed

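mRNA was sequenced from wt and PTX cells of SW1736 and 8505C, 1 library per condition and 4 in all, and groups were taken from the sample titles. According to the methods and the submitters' processing notes, the authors demultiplexed with bcl2fastq 2.20, trimmed with Cutadapt and ERNE, mapped single-end 75 bp reads with STAR (hg38) and obtained gene abundances from StringTie; the annotation used is not given in the sources used here. The tables deposited by the authors give, per gene, coverage (not scaled for depth), FPKM and TPM. The deposited FPKM values were analysed, and the deposited TPM values served as an alternative. No read counts were used, so no count model was fitted.

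The FPKM of all rows of a gene name were summed, and log2((A + 0.1)/(B + 0.1)) was computed where FPKM was above 0.5 in at least 1 library. Both limits, 0.5 FPKM and 1.5 on the log2 scale, follow the study; the pseudocount of 0.1 was chosen here. The highest ratio of coverage to FPKM gave a depth of 48.9, 57.9, 43.5 and 53.6 M reads for SW1736 wt, SW1736-PTX, 8505C wt and 8505C-PTX. Approximate reads per gene were FPKM times depth times the exon length of the GENCODE release 44 MANE transcript inside the gene's span. Exact Poisson 95% intervals from them reflect counting error alone. The 3-read floor used the same depth with the whole exon length of that transcript. The spread between cultures is unknown, since each condition was sequenced once.

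The 10 genes and the lists were chosen with earlier results of these data known. Named were the 10 genes, the receptors and SMADs of the pathway core, list genes called in both lines, the largest changes of each list and the 5 genes most like INHBA; further genes were named after their values were seen. The 10 alternatives changed the pseudocount, unit, minimum, centring, limit or rows. Some genes of the lists are counted but not reported here by name. Protein sequences were not used here. Python 3.11.15, pandas 2.3.3, NumPy 2.4.6, SciPy 1.17.1 and matplotlib 3.10.9 were used.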

Additional observations from a re-analysis of the deposited data

Results flagged for a closer look

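In the pathway lists, 6 genes were lower in the library labelled SW1736-PTX than in SW1736 wt but higher in 8505C-PTX than in 8505C wt, each past the limit of 1.5. With 1 library per condition the difference between the lines was not tested. The share of all genes with such opposite calls was not computed. COL1A1, the α1 chain of type I collagen, had log2 differences of -6.07 in SW1736 and 1.94 in 8505C, FN1 (fibronectin) of -3.45 and 1.56, LTBP2, a microfibril protein, of -5.58 and 1.93, ITGB8, an integrin subunit that activates latent TGF-β, of -5.75 and 2.32, SNAI2, a repressor of epithelial genes, of -2.07 and 2.18, and PMEPA1, a feedback inhibitor of TGF-β signals, of -1.94 and 1.95. Against 8505C wt in place of SW1736 wt, the library labelled SW1736-PTX was higher for COL1A1 (2.85), PMEPA1 (2.82) and SNAI2 (1.93), and was not called or not compared for FN1 (0.17), LTBP2 (-0.89) and ITGB8 (-0.17). All 6 were highest in SW1736 wt, with 153 FPKM for COL1A1, 1133 for FN1 and 64.4 for PMEPA1, as were INHBA, INHBB and FST. In 8505C, COL1A1 (0.217 to 1.11 FPKM), ITGB8 (0.0980 to 0.886) and SNAI2 (0.202 to 1.27) stayed near the minimum of 0.5 FPKM. They were compared there only through 8505C-PTX, in which they were higher. In SW1736, LTBP2 and ITGB8 were compared only through SW1736 wt.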

How the results depend on the processing

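None of the 10 genes with a call changed sign under the 10 alternatives. SMAD7 in SW1736 was under the limit with a pseudocount of 1 FPKM (1.45) and with a limit of 2, and INHBA in 8505C passed it with a pseudocount of 0.01 FPKM (-1.73), with TPM (-1.57) and with a limit of 1. In the order SW1736, 8505C, 8505C wt against SW1736 wt, 8505C-PTX against SW1736-PTX, and SW1736-PTX against 8505C wt, a pseudocount of 1 FPKM called 14.5%, 10.5%, 8.79%, 3.31% and 9.99% of all genes, a minimum in both libraries 14.4%, 13.4%, 7.78%, 3.99% and 12.2%, and a limit of 1 called 40.4%, 35.5%, 28.5%, 14.8% and 33.9%. A limit of 2 called 13.0% in 8505C, 4.78% between the PTX libraries and 13.0% in the last comparison. Of the 10 genes, a minimum in both libraries left 3 calls in SW1736, since INHBA and INHBB could no longer be compared, and a limit of 2 left 1 between the PTX libraries. Of the other pathway genes, a pseudocount of 1 FPKM left 17 calls in 8505C, 16 between the wt libraries, 3 between the PTX libraries and 13 in the last comparison. A minimum in both libraries left 13 in SW1736, 11 between the wt libraries, 4 between the PTX libraries and 15 in the last comparison. Between the PTX libraries, a limit of 1 gave 19 and a limit of 2 gave 4, and a limit of 2 gave 16 in the last comparison. With the minimum in both libraries, 50.0% of all calls in SW1736 were increases, against 60.7% with it in at least 1. Each comparison sets 1 library against 1, so it holds no pairs, and a fit over both lines with the line as a block was not run. Depth limits INHBA and INHBB outside SW1736 wt, which rest on 15 to 48 reads.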
